A study of Mus musculus and Rattus norvegicus with 28 samples.

Results

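The genes examined here were 10 genes of TGF beta signalling, namely the ligands Tgfb1, Tgfb2, Tgfb3 and Inhba, the receptors Tgfbr1, Tgfbr2 and Tgfbr3, the signal-carrying SMAD Smad3, and the inhibitory SMADs Smad6 and Smad7. They were chosen by name, with earlier results of these data known. Each was found once among the 55450 mouse genes and once among the 32623 rat genes of the deposited transcript files. All 10 passed the expression filter in both species, which kept 13979 mouse and 13625 rat genes. Their chromatin was read from the mouse peak lists, at any peak within 2.5 kb of one of their transcript starts.

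The study isolated cells of the left ventricle, labelled as cardiomyocytes, from wild-type C57BL/6 mice at embryonic day 18.5 (E18.5) and postnatal days 1, 3 and 7 (P1, P3 and P7), and measured gene expression by RNA-seq and open chromatin by ATAC-seq, in which a transposase cuts DNA that is not covered by nucleosomes. Each time point had 2 RNA-seq and 2 ATAC-seq libraries. Cells of Sprague Dawley rats at P1 were plated, and 1 day later received DMSO (3 libraries) or 100 nM trichostatin A (TSA, an inhibitor of histone deacetylases, 3 libraries) before collection. Animals of both sexes were used, and the digested cells were pre-plated so that those attaching to plastic could be discarded. A step with a control siRNA belongs to the same culture protocol, and the methods do not say whether the sequenced rat cultures went through it. The study calls the mouse replicates biological, but no source used here ties single libraries to separate litters or, in rat, to separate cultures, so p-values measure only the spread between these libraries, which may be technical. The RNA-seq depth, estimated from coverage and FPKM, was 29.3 to 37.5 M aligned reads in mouse and 28.2 to 38.5 M in rat, which put at least 543 estimated reads on every gene of the set in every library.

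TGF beta ligands are secreted in a latent form that is held in the extracellular matrix until it is released. The active ligand joins the receptors TGFBR1 and TGFBR2, and TGFBR1 then phosphorylates SMAD2 and SMAD3. These enter the nucleus with SMAD4 and switch on genes of the matrix and of the cytoskeleton. SMAD6 and SMAD7 are themselves induced by signalling and block it at the receptor. In the heart this pathway is best known for its part in valve and septum formation and in the activation of fibroblasts.

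Some libraries stood apart. In rat, DMSO replicate 3 and TSA replicate 3 differed from the other libraries of their groups. The rat values are therefore given with and without that pair, a choice made after seeing the data. In mouse, the peak names of E18.5 replicate 1 and P7 replicate 1 of the ATAC-seq carry the same run name, although the lists hold 13149 and 49113 peaks. The 8 lists held 13149 to 95257 peaks, so presence of a peak depends on the length of the list.

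Promoter sequence is shown for some genes of the set whose start lay under, or next to, a recurrent peak. RefSeq (GRCm38.p6, the same build as mm10) gave a window for 7 of the 10 genes, and no entry was used for Tgfb3, Tgfbr3 and Smad7. The windows of Tgfb1 and Tgfb2 were searched but are not printed, although that of Tgfb2 met peaks in 4 of 8 libraries. Each line holds the 250 bases before the RefSeq start, read 5′ to 3′ on the strand of the gene. Capitals mark matches to the GC box GGGCGG, the TATA box TATAAA and the SMAD box CAGAC, each searched on both strands.
Tgfbr1, chr4:47352972-47353221, plus strand: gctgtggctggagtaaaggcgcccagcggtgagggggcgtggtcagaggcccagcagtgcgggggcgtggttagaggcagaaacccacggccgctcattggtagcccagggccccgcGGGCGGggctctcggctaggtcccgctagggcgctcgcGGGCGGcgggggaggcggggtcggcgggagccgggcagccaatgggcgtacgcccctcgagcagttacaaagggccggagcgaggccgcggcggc
Tgfbr2, chr9:116175364-116175613, minus strand: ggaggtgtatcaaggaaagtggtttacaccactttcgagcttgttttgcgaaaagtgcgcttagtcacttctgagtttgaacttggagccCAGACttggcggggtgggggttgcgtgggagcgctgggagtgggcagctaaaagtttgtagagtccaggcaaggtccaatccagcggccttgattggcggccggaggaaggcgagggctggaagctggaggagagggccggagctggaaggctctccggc
Smad3, chr9:63757995-63758244, minus strand: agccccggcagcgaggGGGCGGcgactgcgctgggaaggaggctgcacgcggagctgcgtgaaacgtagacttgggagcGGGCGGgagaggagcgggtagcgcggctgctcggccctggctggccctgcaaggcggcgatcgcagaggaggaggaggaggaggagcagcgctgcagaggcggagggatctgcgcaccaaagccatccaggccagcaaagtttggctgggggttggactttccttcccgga
Smad6, chr9:64022060-64022309, minus strand: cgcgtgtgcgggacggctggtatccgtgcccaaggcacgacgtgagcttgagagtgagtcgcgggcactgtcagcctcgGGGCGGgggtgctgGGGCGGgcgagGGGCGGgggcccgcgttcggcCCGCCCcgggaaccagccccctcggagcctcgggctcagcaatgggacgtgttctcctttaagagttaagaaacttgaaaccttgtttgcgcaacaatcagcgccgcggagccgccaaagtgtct
Inhba, chr13:16011601-16011850, plus strand: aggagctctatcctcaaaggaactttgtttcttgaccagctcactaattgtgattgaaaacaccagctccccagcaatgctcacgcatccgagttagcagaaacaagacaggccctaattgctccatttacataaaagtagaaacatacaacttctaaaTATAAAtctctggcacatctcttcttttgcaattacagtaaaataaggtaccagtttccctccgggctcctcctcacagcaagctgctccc
The windows of Tgfbr1, Smad3 and Smad6 were rich in G and C (74.8%, 69.2% and 66.8%, against a median of 52.4% over 32851 mouse windows), that of Tgfbr2 held 58.4% and that of Inhba 43.2%. GC boxes stood in the windows of Tgfb1, Tgfbr1, Smad3 and Smad6, and in 32.7% of all windows. The only TATA boxes were those of Inhba, 91 bases before the start, and of Tgfb2, 31 bases before it, against 12.4% of all windows. A SMAD box was found in Tgfb2, in Tgfbr2 and in a downstream Tgfbr1 window that begins at a shorter transcript, and in 42.2% of all windows. None of the 8 windows of the set held the AP1 motif TGAGTCA, the CRE motif TGACGTCA or the palindromic SMAD motif GTCTAGAC, which 4.46%, 1.55% and 0.167% of all windows held. Such matches describe the letters and were not tested for binding.

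In mouse, the 10 genes fell into 3 groups by their calls against E18.5. Tgfb3 and Smad6 were called higher at every later time point, Tgfbr2 and Inhba at P3 and P7, and the other 6 genes at no time. Genes of a group could differ in course. The mean of Tgfb3 was highest at P7 and that of Smad6 at P1. Among the uncalled genes Tgfb2 was highest at P1, Tgfbr1 at E18.5 and Tgfb1 at P7. A call required a log2 fold change beyond 1 in either direction together with an adjusted p below 0.05, by limma's moderated test with Benjamini-Hochberg adjustment over all tested genes. Fold changes are on the log2(FPKM + 1) scale, which understates changes of low genes. At P1 2 of 10 genes were called higher and 0 lower, where 10.1% of all tested genes were called higher and 6.06% lower. At P3 it was 4 higher and 0 lower, where 13.0% of all tested genes were higher and 8.88% lower. P7 also gave 4 higher and 0 lower, where 15.4% of all tested genes were higher and 12.3% lower. The shares of the set called higher at P3 and P7 were above those of all genes, but they rest on 4 genes and were not tested as a group. The set was also chosen with earlier results of these data known.

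Both libraries of a time point lay above both E18.5 libraries for 9 genes (P1), 8 genes (P3) and 8 genes (P7), and below them for 1 gene each time. Across all tested genes, 43.5%, 46.3% and 45.6% were higher without overlap at P1, P3 and P7, and 26.0%, 28.4% and 32.7% were lower. The 10 genes had a median log2 fold change of 0.54 (P1), 0.80 (P3) and 0.93 (P7). Over all tested genes it was 0.15, 0.16 and 0.15. With TPM in place of FPKM the median of all tested genes moved to 0.38, 0.41 and 0.40, and with median-of-ratios size factors to -0.01, -0.02 and -0.01. With size factors 45.7%, 45.7% and 45.5% of the genes called at P1, P3 and P7 were higher, against 62.5%, 59.4% and 55.7% without them. The 3 comparisons share the same E18.5 libraries, so their values are set side by side and are not independent of each other. In bulk samples, fewer cells of a type and less RNA per cell cannot be told apart.

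**Figure D1:**
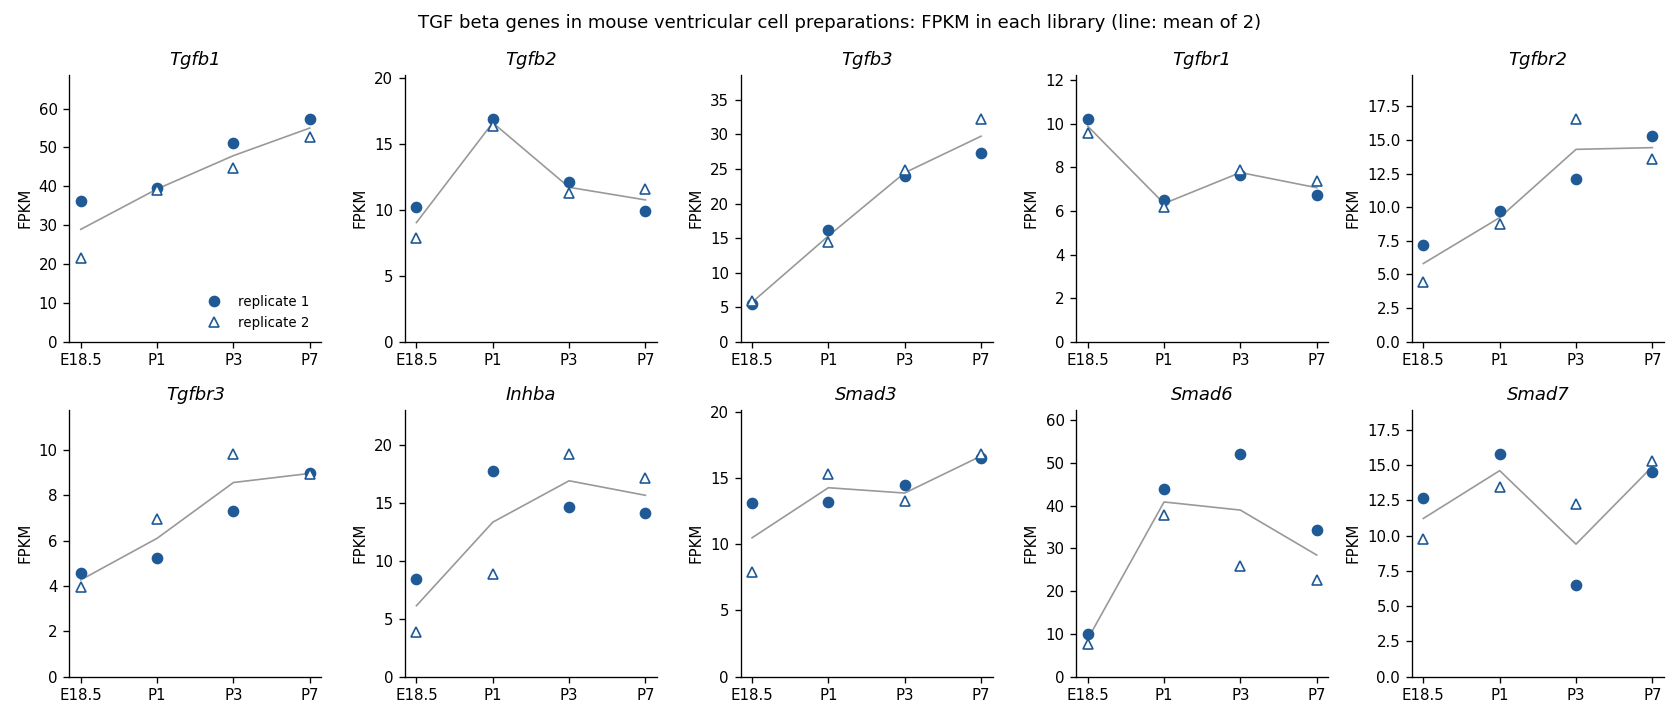
FPKM (vertical axis, from 0) of each of the 10 genes in the 8 mouse RNA-seq libraries, by time point (horizontal axis). Filled circles are replicate 1, open triangles replicate 2 and the line joins the means. Tgfb3 climbs from under 6 FPKM at E18.5 to over 27 at P7, Smad6 is lowest in both E18.5 libraries, and Tgfbr1 is highest there.

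Tgfb1, the most widely expressed TGF beta (chr7:25687002-25705077 in mm10, as all positions here, plus strand), was the most abundant of the 3 TGF beta ligands in every mouse library. It stood at 36.2 and 21.7 FPKM in the E18.5 libraries, 39.7 and 39.0 in those of P1, 51.2 and 44.6 in those of P3, and 57.3 and 52.7 in those of P7. The E18.5 libraries were the lowest and differed from each other more than those of any later time point. Against E18.5 its log2 fold change reached 0.47 (P1), 0.75 (P3) and 0.95 (P7), with an SE of 0.21, just under the fold threshold at P7 (adjusted p = 0.00624). It passed at P3 with TPM (1.01) and without E18.5 replicate 1 (1.11), and at P7 with TPM (1.22), with limma-voom (1.02), without E18.5 replicate 1 (1.30) and without P7 replicate 2 (1.00). Other alternatives moved it down, to 0.12, 0.39 and 0.59 without E18.5 replicate 2 (adjusted p of 0.530, 0.0580 and 0.0131 by limma). With size factors it was 0.54 at P3 (adjusted p = 0.0592) and 0.77 at P7 (adjusted p = 0.0129).

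Tgfb3, a ligand with roles in palate and heart development (chr12:86056745-86079041, minus strand), had the largest log2 fold changes of the set at P7 and none of its time points overlapped. Its libraries gave 5.47 and 5.95 FPKM in the E18.5 pair of libraries, 16.1 and 14.5 in the P1 pair, 24.0 and 24.9 in the P3 pair and 27.3 and 32.2 in the P7 pair. The mean was thus 2.68-fold (P1), 4.28-fold (P3) and 5.21-fold (P7) that of E18.5. The log2 fold changes were 1.28, 1.92 and 2.19 (SE 0.14), with adjusted p of 0.000384, 5.14e-05 and 1.66e-05. Every alternative fit called Tgfb3 at the 3 time points, with an adjusted p of at most 0.00393.

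Tgfb2, which is essential for outflow tract and valve formation (chr1:186622792-186705989, minus strand), was highest at P1. Its values were 10.2 and 7.85 FPKM in the E18.5 pair of libraries, 16.9 and 16.4 in the P1 pair, 12.1 and 11.3 in the P3 pair and 9.91 and 11.6 in the P7 pair. Both P1 libraries lay above the other 6, and those of P7 overlapped E18.5. The log2 fold change at P1 was 0.82 (SE 0.16, adjusted p = 0.00517), under the fold threshold, and with TPM it was 1.08. At P7 against P1 it was -0.59 (adjusted p = 0.0395). Among the annotated Tgfb2 transcripts, 1 took 50.5 to 69.8% and another 25.01 to 44.8% of the FPKM, depending on the library.

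As a share of the 3 TGF beta ligands, Tgfb3 took 10.5 to 16.8% of the summed FPKM at E18.5 and 28.9 to 33.3% at P7. Tgfb2 took 19.7 to 22.1% at E18.5 and 10.5 to 12.0% at P7. Tgfb1 held between 54.6 and 69.7% in all 8 libraries.

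Inhba encodes the subunit from which activin A is built, a ligand that signals through SMAD2 and SMAD3 as TGF beta does (chr13:16011851-16031621, plus strand). It was measured at 8.40 and 3.83 FPKM in the E18.5 pair of libraries, 17.8 and 8.89 in the P1 pair, 14.6 and 19.2 in the P3 pair and 14.1 and 17.2 in the P7 pair. Every later library exceeded both E18.5 libraries, but P1 replicate 2 did so narrowly. Inhba rose by a log2 fold change of 1.40 at P3 (adjusted p = 0.0152) and 1.30 at P7 (adjusted p = 0.0182), with an SE of 0.37. At P1 the log2 fold change of 1.02 had an adjusted p of 0.0596, and it passed with TPM (1.30), without E18.5 replicate 1 (1.50) and without P1 replicate 2 (1.48). It was 0.53 without E18.5 replicate 2 (adjusted p = 0.320) and 0.55 without P1 replicate 1 (adjusted p = 0.316). The Inhba calls were lost without E18.5 replicate 2 (0.92 at P3 and 0.82 at P7), without the expression filter (adjusted p of 0.0639 and 0.0711), without P3 replicate 2 and without P7 replicate 2.

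Tgfbr1, the type I receptor kinase (chr4:47353222-47414931, plus strand), had its highest values before birth. Its libraries read 10.2 and 9.58 FPKM in the E18.5 pair of libraries, 6.50 and 6.18 in the P1 pair, 7.64 and 7.89 in the P3 pair and 6.74 and 7.40 in the P7 pair. Both E18.5 libraries lay above the other 6, which makes Tgfbr1 the gene counted as lower without overlap at each time point. The log2 fold changes of -0.57, -0.31 and -0.43 (SE 0.14) stayed under the fold threshold, with adjusted p of 0.0125, 0.0941 and 0.0279 in the same order. With TPM they were -0.38, -0.091 and -0.21 (adjusted p of 0.0769, 0.645 and 0.275), and with size factors -0.75, -0.51 and -0.60.

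Tgfbr2 encodes the type II receptor that binds the ligand first (chr9:116084293-116175360, minus strand). Its values were 7.18 and 4.45 FPKM in the E18.5 pair of libraries, 9.71 and 8.74 in the P1 pair, 12.1 and 16.5 in the P3 pair and 15.3 and 13.6 in the P7 pair. The E18.5 libraries were lowest, P1 lay between, and P3 and P7 overlapped. Tgfbr2 rose by a log2 fold change of 1.18 at P3 (adjusted p = 0.00345) and 1.21 at P7 (adjusted p = 0.00246), with an SE of 0.23. At P1 it was 0.61 (adjusted p = 0.0605). Without E18.5 replicate 2 the values of 0.89 at P3 and 0.91 at P7 no longer passed, and at P3 the call was also lost with size factors (0.99) and without P3 replicate 2 (0.97).

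Tgfbr3, or betaglycan, presents TGF beta to the signalling receptors (chr5:107106570-107289629, minus strand). It gave 4.57 and 3.96 FPKM in the E18.5 pair of libraries, 5.25 and 6.95 in the P1 pair, 7.31 and 9.81 in the P3 pair and 8.97 and 8.95 in the P7 pair. All later libraries exceeded both E18.5 libraries. The log2 fold changes were 0.42, 0.85 and 0.92 (SE 0.19), and those of P3 and P7 had adjusted p of 0.00709 and 0.00400 without reaching the fold threshold. At P3 Tgfbr3 passed with TPM (1.15), limma-voom (1.06) and without P3 replicate 1 (1.04), and at P7 with a pseudocount of 0.1 (1.06), TPM (1.24), limma-voom (1.14) and without E18.5 replicate 1 (1.01). With size factors it was 0.67 at P3 and 0.77 at P7, and at P3 it was 0.66 without P3 replicate 2 (adjusted p = 0.0582).

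The order of the receptors differed between ages. Tgfbr1 made up 46.5 to 53.2% of the summed receptor FPKM at E18.5 and 21.8 to 24.7% at P7, where Tgfbr2 held 45.4 to 49.3%. In each E18.5 library Tgfbr1 was the most abundant of the 3 receptors, and in each of the other 6 libraries it was Tgfbr2.

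Smad3 carries the signal of TGF beta and activin to the nucleus (chr9:63646767-63757994, minus strand). It measured 13.1 and 7.87 FPKM in the E18.5 pair of libraries, 13.2 and 15.3 in the P1 pair, 14.4 and 13.3 in the P3 pair and 16.5 and 16.8 in the P7 pair. E18.5 replicate 1 came close to P1 and P3, and replicate 2 lay far below all others. Smad3 was not called, with log2 fold changes of 0.45, 0.41 and 0.66 (SE 0.21) and adjusted p of 0.130, 0.147 and 0.0299. Without E18.5 replicate 2 the log2 fold changes were 0.11, 0.076 and 0.33 (adjusted p = 0.111 for the last), and without E18.5 replicate 1 they were 0.78, 0.74 and 0.99.

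Smad6, an inhibitory SMAD that acts chiefly on BMP signalling (chr9:63953076-64022059, minus strand), had the largest change at P1. Its libraries gave 10.01 and 7.52 FPKM in the E18.5 pair of libraries, 43.8 and 37.9 in the P1 pair, 52.1 and 25.9 in the P3 pair and 34.3 and 22.6 in the P7 pair. The 6 postnatal libraries were all above 22 FPKM, and the pairs at P3 and P7 were spread widely. Smad6 rose 4.67-fold by the ratio of means at P1, 4.45-fold at P3 and 3.25-fold at P7. The log2 fold changes were 2.11, 1.96 and 1.58 (SE 0.32), with adjusted p of 0.00174, 0.00171 and 0.00388, and every alternative fit called the gene.

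Smad7, the inhibitory SMAD that blocks the TGF beta receptor (chromosome 18, plus strand), gave 12.7 and 9.76 FPKM in the E18.5 pair of libraries, 15.8 and 13.4 in the P1 pair, 6.52 and 12.3 in the P3 pair and 14.5 and 15.3 in the P7 pair. The P3 libraries overlapped those of E18.5, and P3 replicate 1 was the lowest of all 8. Its log2 fold changes of 0.36, -0.28 and 0.39 (SE 0.26) had adjusted p of 0.298, 0.400 and 0.233.

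**Figure D2:**
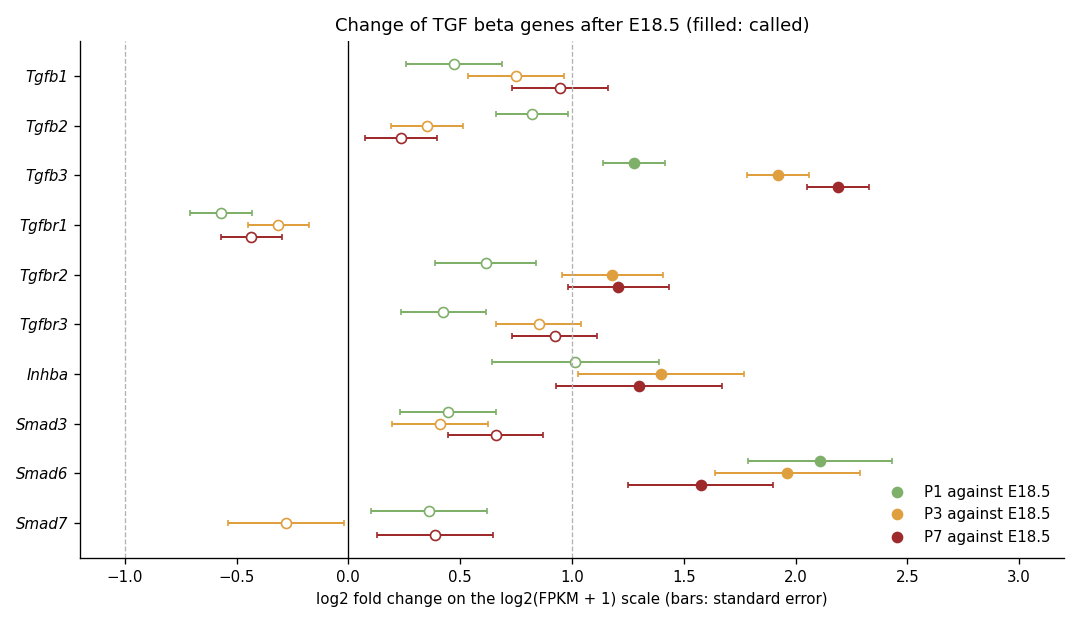
Log2 fold change (horizontal axis, log2(FPKM + 1) scale) of the 10 genes at P1, P3 and P7 against E18.5, with bars for the standard error of limma's fit, 2 libraries per time point. Filled symbols were called and dashed lines mark the fold threshold of 1. Tgfb3 and Smad6 lie beyond the line at all 3 time points, and Tgfbr1 lies left of 0 at each.

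Between the postnatal time points none of the 10 genes was called. P3 against P1 called 0.0143% of all tested genes in either direction, P7 against P1 8.91% and P7 against P3 3.55%. By limma's unadjusted p under 0.05, 4 genes of the set differed between P3 and P1, 4 between P7 and P1, and 1 between P7 and P3. The shares of all tested genes above are for calls, which are stricter. No share at the unadjusted threshold is given, so these counts have no background beside them. Limma-voom also called none of the 10 genes. The nearest to a call was Tgfb3 at P7 against P1, with a log2 fold change of 0.91 (SE 0.14, adjusted p = 0.00346). Without P7 replicate 1 it reached 1.03 and was called.

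The order of mean levels, which FPKM allows because it is given per length, differed with age. At E18.5 Tgfb1 led at 28.9 FPKM without overlap with the next gene, and Tgfbr3 was last at 4.26. From Smad7 in second place down to Tgfb3 in ninth, neighbouring genes in the order overlapped. At P1 Smad6 led at 40.9 FPKM and overlapped Tgfb1 at 39.3. At P7 Tgfb1 led at 55.0 FPKM without overlap, Tgfb3 at 29.7 overlapped Smad6 at 28.5, and Tgfbr1 was last at 7.07. As a percentile among the tested genes of a library, Tgfb3 ranged from 41.8 to 83.2 and Smad6 from 52.2 to 89.3.

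Across the 8 mouse libraries, the genes with the pattern most like Tgfb3 were Fbln2 (Pearson r of 0.997 on the log2 scale, among genes with a mean FPKM of at least 5) and Gm14005 (0.996). For Smad6 they were Zmat2 (0.995) and Atp6v1e1 (0.984), for Tgfbr2 Arhgef40 (0.994) and Lzts2 (0.987), and for Inhba Tnpo2 (0.988) and Nes (0.988). Tgfb1 was closest to Pgm2 (0.989) and Pdcd6 (0.988), and Tgfbr1 to Dnaja1 (0.973) and Ccdc85b (0.972). For Tgfbr3 these were Gm12751 (0.985) and Tcirg1 (0.978), and for Smad3 Bcl3 (0.971) and Sars (0.969). Tgfb2, with Tex2 (0.956) and Srek1ip1 (0.955), and Smad7, with Hnrnpf (0.916) and Pygo2 (0.894), had the least close neighbours. Within the set, Tgfbr2 and Tgfbr3 followed each other most closely (0.939), then Tgfb1 and Smad3 (0.930), while Tgfbr1 ran against Smad6 (-0.859). The 8 libraries are 4 pairs of replicates, so these values mainly describe 4 time points.

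Markers of cardiomyocytes and of other cells were called in the same comparisons. Of 14 cardiomyocyte genes, which define contractile cells, 3 were called lower at P1, then 12 (P3) and 14 (P7), and their summed FPKM ran from 30510 to 39638 at E18.5, 15250 to 24043 at P1, 8274 to 10156 at P3 and 1148 to 2593 at P7. Tnnt2, the cardiac troponin T gene, stood at 6657 ± 729.1 FPKM (mean ± SD, n = 2) at E18.5 and at 519.9 ± 268.9 at P7, where Col1a1 stood at 818.3 ± 139.3. Of 12 fibroblast genes, 8, 8 and 11 were called higher at P1, P3 and P7, and 1, 0 and 0 lower. Their summed FPKM was 586.7 to 587.6 at E18.5, 1305 to 1510 at P1, 1691 to 1715 at P3 and 3126 to 3862 at P7. Col1a1, which encodes collagen I, had a log2 fold change of 3.54 at P7 and the matrix gene Dcn 2.85. The 10 smooth muscle and pericyte genes summed to 430.9 to 559.6 FPKM at E18.5 and 1052 to 1127 at P1. The sum was 1139 to 1302 at P3 and 1671 to 1879 at P7. A sum follows its most abundant genes, and single genes of this list went both ways. Its median log2 fold change was -0.20 (P1), 0.64 (P3) and 0.85 (P7). Rises were called for 2, 2 and 5 of the 10 genes in that order, and falls for 2, 3 and 3. Myh11, which defines smooth muscle, had a mean of 0.587 FPKM at E18.5, 0.383 at P1 and 3.80 at P7. No cardiomyocyte, fibroblast or smooth muscle marker was at 0 in a mouse group.

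Of 12 endothelial genes, 1 was called higher and 3 lower at P7, and Pecam1 had a log2 fold change of -0.15 there. Of 10 macrophage genes, 1 was higher and 1 lower, and of 8 epicardial genes 2 were higher and 0 lower at P7. The macrophage gene C1qa had a log2 fold change of -0.75 and the epicardial gene Wt1 of 0.77, neither of them called at P7. Wt1 was called higher at P1 (1.77) and P3 (1.11). At both P1 and P3, 3 epicardial genes were higher and 1 was lower. Of the endothelial genes, 1 and 2 were higher and 4 and 3 lower at P1 and P3. Of the macrophage genes, 1 and 3 were higher and 1 and 0 lower. Summed FPKM at E18.5 and P7 was 466.5 to 797.0 and 473.4 to 509.9 for the endothelial list, 59.9 to 66.7 and 120.8 to 143.3 for the macrophage list, and 166.6 to 174.3 and 351.6 to 357.5 for the epicardial list. The median log2 fold changes of these lists at P7 were -0.015, -0.33 and 0.51 in that order. The macrophage sum thus rose while its median fell, since a sum follows its most abundant genes. All 7 erythroid genes tested were called lower at each later time point, and their sum was 29046 to 35395 FPKM at E18.5 against at most 41.0 afterwards, with Hba-a1 at a log2 fold change of -11.13 at P7. Slc4a1, the anion exchanger of red cells, was listed at 0 at P3 and P7. Across the 8 libraries the summed fibroblast markers correlated with Tgfb3 (r of 0.951 on the log2 scale), Tgfbr3 (0.886), Tgfb1 (0.852), Tgfbr2 (0.846), Smad3 (0.792), Inhba (0.728) and Smad6 (0.635), less with Smad7 (0.296) and Tgfb2 (0.260), and inversely with Tgfbr1 (-0.686). For the summed smooth muscle and pericyte markers r was 0.972 with Tgfb3, 0.706 with Smad6, -0.764 with Tgfbr1 and 0.282 to 0.867 with the other genes. These values describe the sum, which rose at P1 while the median log2 fold change of its list was -0.20. The summed cardiomyocyte markers ran against Tgfb3 (-0.847), Tgfbr3 (-0.792), Tgfb1 (-0.791), Tgfbr2 (-0.783), Smad3 (-0.690) and Inhba (-0.672). Their r was weaker with Smad6 (-0.370), Smad7 (-0.324) and Tgfb2 (0.005), and 0.403 with Tgfbr1. The summed endothelial markers had an r of 0.766 with Tgfbr1, -0.623 with Tgfb2 and -0.509 with Smad6, and -0.248 to 0.064 with the other genes. The libraries are replicate pairs, so these r mainly describe the time points, and the r of other tested genes with the same sums is not given. The part of these markers in the results for the 10 genes was not tested.

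The rest of the pathway was read from lists chosen by function, also with earlier results of these data known. Among 14 other ligands of the superfamily, 9 were tested, and 3 rose and 3 fell at P7 (median log2 fold change -0.48, against 0.15 over all tested genes). Inhbb, the other activin subunit, rose from 1.48 ± 0.650 FPKM (mean ± SD, n = 2) to 13.3 ± 3.40 (log2 fold change 2.54, SE 0.23, adjusted p = 6.79e-05). Bmp4 rose from 5.67 ± 1.06 to 19.0 ± 5.68 FPKM (1.56). Bmp7, with 12.6 ± 1.46 FPKM before birth and 0.0647 ± 0.0701 at P7, fell by 3.67 on the log2 scale, and Bmp10, which heart muscle makes, went from 6.39 ± 1.22 to 0.277 ± 0.128 FPKM and fell by 2.53.

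Of 8 other receptors and co-receptors tested, 3 rose at P7 and none fell (median 0.62). Acvrl1, the ALK1 receptor, rose from 4.67 ± 1.55 to 25.5 ± 1.71 FPKM (log2 fold change 2.25, SE 0.22, adjusted p = 9.9e-05), and Cd109, a co-receptor, from 2.92 ± 1.89 to 12.7 ± 1.19 FPKM (1.89). Of the other 5 SMADs, 1 was called higher at P1 and none at P3 or P7 (median 0.22 at P7). Among 12 genes of ligand latency and activation, 6 rose and 1 fell at P7 (median 1.06). Lrrc32, or GARP, which holds latent TGF beta on the cell surface, rose from 3.94 ± 1.02 to 65.6 ± 10.6 FPKM (log2 fold change 3.76, SE 0.20, adjusted p = 9.07e-06). The matrix fibrillin Fbn1 rose from 4.26 ± 0.0639 to 68.6 ± 14.2 FPKM (3.71), and the latent TGF beta binding protein Ltbp4, at 28.4 ± 0.0832 and 9.75 ± 0.711 FPKM, fell by 1.45 on the log2 scale.

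Among 14 inhibitors tested, 3 rose and 2 fell at P7 (median 0.18). Pmepa1, which dampens SMAD signalling, rose from 9.57 ± 1.14 to 29.3 ± 2.67 FPKM (log2 fold change 1.52), and Fstl3, which binds activin, from 12.2 ± 1.97 to 28.0 ± 3.69 FPKM (1.14). The pseudoreceptor Bambi, at 27.3 ± 0.359 and 4.32 ± 0.610 FPKM, fell by 2.41 on the log2 scale, and the corepressor Tgif2 fell by 1.55. Targets of TGF beta had the highest median of the 7 lists at P7. Of 21 tested, 10 rose and 1 fell at P1, 14 rose and 1 fell at P3, and 17 rose and 0 fell at P7 (medians 0.94, 1.82 and 2.40). Tagln, an actin-binding protein of smooth muscle, went from 17.2 ± 2.38 to 423.4 ± 17.1 FPKM (log2 fold change 4.55, SE 0.19, adjusted p = 3.71e-06) and the collagen cross-linker Lox from 5.30 ± 0.00327 to 144.4 ± 25.9 FPKM (4.52). Of the 22 genes in that list, 6 also serve as fibroblast or smooth muscle markers above (Col1a1, Col1a2, Col3a1, Postn, Acta2 and Tagln). Among 8 targets of BMP, 4 rose at P1, 4 at P3 and 3 at P7 while 1, 1 and 0 fell (median 0.46 at P7), with Atoh8 at 2.37 and Id3 at 1.15.

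Open chromatin was then read at the starts of the 10 genes. A promoter peak in both libraries was found at 8 genes in the E18.5 lists, 5 in those of P1, 10 in those of P3 and 10 in those of P7. By the same rule 56.7%, 41.3%, 87.5% and 83.2% of all tested genes had one, and the lists were longest at P3 and P7. With the 13149 peaks of highest score from each list the counts were 7, 5, 4 and 7 (54.1%, 31.5%, 37.3% and 45.2% of all tested genes), and the count at P3 was then the lowest of the 4. E18.5 replicate 2 alone, without the library that shares its run name with P7 replicate 1, gave 8 genes, where 62.4% of all tested genes had a peak, and P7 replicate 2 alone gave 10, where 85.5% had one.

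**Figure D3:**
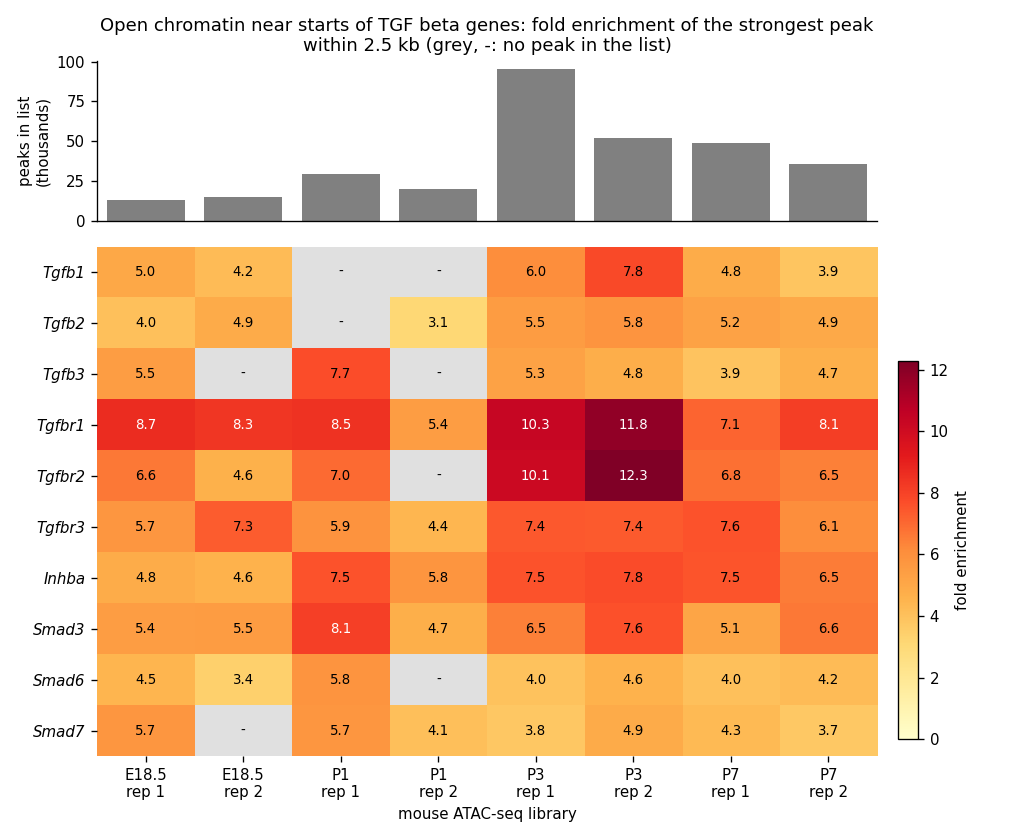
Number of peaks in each of the 8 mouse ATAC-seq lists (bars, axis from 0) above the fold enrichment over background of the strongest peak within 2.5 kb of a start of each gene (colour and number), grey where the list held none. Tgfbr1 has a peak in all 8 libraries, from 5.4 to 11.8, while Tgfb1 has none in either P1 list.

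The highest fold enrichments of the 10 genes were those of Tgfbr2 and Tgfbr1. Tgfbr1 had a peak in all 8 libraries with fold enrichments of 8.66 and 8.34 in the E18.5 pair, 8.47 and 5.43 in the P1 pair, 10.3 and 11.8 in the P3 pair and 7.11 and 8.12 in the P7 pair. Its peak covered the start of the main transcript in 7 libraries, with summits at -52 to -243 bases from it, inside the sequence shown above. The P3 replicate 1 peak spanned chr4:47352688-47353950 (mm10).

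Tgfbr2 had a peak in 7 libraries, with 6.63 and 4.64 at E18.5, 6.99 in P1 replicate 1 and none in P1 replicate 2, 10.1 and 12.3 in the P3 pair and 6.82 and 6.47 in the P7 pair. The highest of these, in P3 replicate 2, lay at chr9:116174911-116175526, over the start. The most abundant Tgfbr2 transcript in the files starts at base 116175265 of the minus strand, downstream of the RefSeq start behind the printed window, and distances to summits are measured from it. Tgfbr3 had a peak in all 8 libraries, at 4.41 to 7.56, mostly within the 5′ UTR up to 326 bases past the start.

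Among the ligands, the peaks lay away from the main start more often. The recurrent Tgfb1 peak was in intron 1, with summits 2275 to 2444 bases past the start of the most abundant transcript and close to the starts of shorter annotated transcripts (chr7:25688868-25689687 in P3 replicate 1). It was present in 6 libraries at 3.85 to 7.80 and in neither P1 library, and a peak covered the main start itself in 1 library. Tgfb2 had peaks in 7 libraries, of which 6 held a summit in the 5′ UTR 412 to 623 bases past the start, at 4.03 to 5.83.

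The Tgfb3 peak was found in E18.5 replicate 1 (5.46), P1 replicate 1 (7.70), both P3 libraries (5.26 and 4.75) and both P7 libraries (3.89 and 4.69), and not in E18.5 replicate 2 or P1 replicate 2. In 5 of these libraries the summit lay at -433 to -516 bases from the start, a minus sign meaning upstream. Inhba had a peak in all 8 libraries, at 4.81 and 4.60 in the E18.5 pair, 7.55 and 5.79 in the P1 pair, 7.53 and 7.75 in the P3 pair and 7.50 and 6.54 in the P7 pair. Both E18.5 values were the lowest. The Inhba summits near the start stood 186 to 560 bases past it in the 8 libraries, and peaks reached at most 54 bases into the upstream sequence printed above. Fold enrichments were given by the peak caller per library and were not tested between time points.

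Smad3 had a peak upstream of its start in all 8 libraries, with summits at -93 to -217 bases, and the peak covered the whole printed window in 6 of them. Its strongest peak near any start ran from 4.73 to 8.09. Near starts of shorter annotated transcripts, Smad3 also held peaks in intron 3 in the 4 P3 and P7 libraries, as at chr9:63667115-63667386 in P7 replicate 1. Intron 1 held peaks in the same 4 libraries and in P1 replicate 1, there at chr9:63743008-63743142 and chr9:63743984-63744140. Smad6 had a peak over the main start in 7 libraries and no peak in P1 replicate 2. Its strongest peak near any start, which was not always the one over the main start, ran from 3.44 to 5.82. The mean transcript level of Smad6 was highest at P1, where 1 of the 2 lists held its peak. Smad7 had a peak in 7 libraries and none in E18.5 replicate 2, with summits upstream of the start in each of the 7, at -6 to -901 bases. Its strongest peak near any start, in some libraries in intron 2, ran from 3.72 to 5.74.

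**Figure D4:**
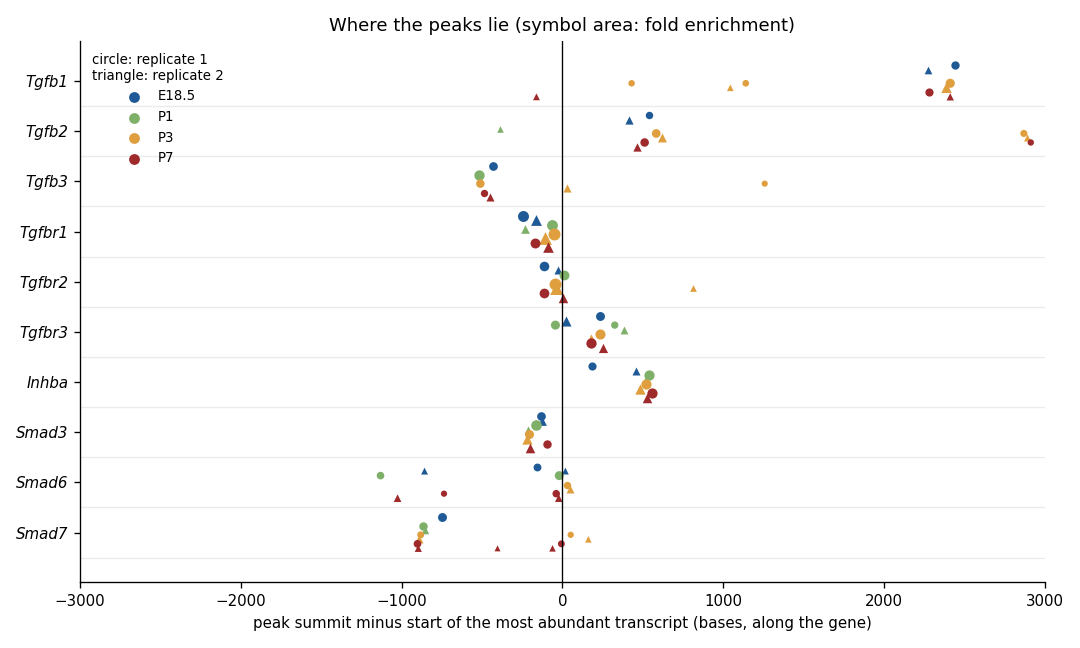
Distance in bases (horizontal axis) from the start of the most abundant transcript to the summit of each peak, for peaks near it, in each of the 8 mouse libraries (colour: time point, circle: replicate 1, triangle: replicate 2, area: fold enrichment). The recurrent summits of Tgfbr1, Tgfbr2 and Smad3 gather at the start, those of Inhba 186 to 560 bases past it and those of Tgfb1 2275 to 2444 bases past it.

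In rat cells, none of the 10 genes was called with TSA, where 2.13% of all tested genes were called in either direction. By limma's unadjusted p under 0.05, 2 of the 10 differed, and no share of all tested genes at that threshold is given beside it. Limma-voom on estimated reads also called none of the 10. Two-sided exact permutation of 3 against 3 libraries cannot go below 0.1. Tgfb1 and Tgfbr1 were lower in every TSA library than in any DMSO library and no gene was higher without overlap, where 10.1% of all tested genes were lower and 17.1% higher in that way. The median log2 fold change of the 10 genes was -0.12, against 0.03 over all tested genes.

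Tgfbr1 was measured at 13.1, 13.4 and 11.1 FPKM with DMSO and 8.42, 7.60 and 6.50 with TSA. The groups did not overlap, so TSA was lower whichever way the libraries were paired. The log2 fold change was -0.67 (SE 0.13, adjusted p = 0.0472, exact permutation p = 0.1), past the p threshold but under the fold threshold. Over the alternatives the adjusted p ran from 0.00992 to 0.174.

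Tgfb1 read 48.0, 50.5 and 42.4 FPKM with DMSO and 37.1, 38.6 and 32.4 with TSA, again without overlap. Its differences within the inferred pairs were nearly equal, at -0.37, -0.38 and -0.38 on the log2 scale. The log2 fold change of -0.37 (SE 0.11) had an adjusted p of 0.127 and an exact permutation p of 0.1. Without the third pair Tgfb1 kept -0.37 (adjusted p = 0.0164, limma) and Tgfbr1 -0.66 (adjusted p = 0.00992), both under the fold threshold. Leaving that pair out was chosen after seeing the data, and it moved the calls over all tested genes from 290 to 549.

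Tgfbr2, at 54.3, 61.0 and 36.5 FPKM with DMSO and 39.0, 41.1 and 27.8 with TSA, and Tgfb3, at 42.5, 41.1 and 75.5 against 35.5, 34.4 and 57.9, were lower in 3 of 3 pairs although the groups overlapped. Their log2 fold changes were -0.47 (adjusted p = 0.318) and -0.29 (adjusted p = 0.639). Smad3 was higher with TSA in 3 of 3 pairs, at 20.9, 18.3 and 13.3 FPKM with DMSO and 22.2, 21.5 and 16.8 with TSA, a log2 fold change of 0.21 (adjusted p = 0.602). Without the third pair Tgfbr2 stood at -0.51 (adjusted p = 0.0132, limma), Tgfb3 at -0.25 (adjusted p = 0.0408) and Smad3 at 0.16 (adjusted p = 0.264). That fit was chosen after seeing the data. In each of the 3 genes the overlap came from libraries of replicate 3. The pairs were inferred from the data, and the share of all tested genes with 3 pairs in the same direction is not given.

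For 3 more genes DMSO replicate 3 lay outside all other libraries. Tgfb2 gave 27.2, 19.5 and 96.2 FPKM with DMSO and 27.1, 27.7 and 37.6 with TSA. Tgfbr3 gave 31.2, 33.2 and 12.1 against 27.9, 27.5 and 20.7, and Inhba 6.48, 6.65 and 17.1 against 9.04, 10.7 and 12.2. DMSO replicate 3 was the highest of all 6 libraries for Tgfb2 and Inhba and the lowest for Tgfbr3. The log2 fold changes were -0.28 for Tgfb2, 0.10 for Tgfbr3 and 0.20 for Inhba, and without the third pair they were 0.24, -0.21 and 0.52 (adjusted p of 0.327, 0.0828 and 0.0311, limma).

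Smad6 gave 38.6, 37.4 and 41.6 FPKM with DMSO and 50.9, 46.4 and 34.1 with TSA (log2 fold change 0.14, adjusted p = 0.687). Smad7 gave 19.1, 20.3 and 22.0 against 22.5, 21.7 and 19.7 (0.05, adjusted p = 0.836). Both inhibitory SMADs were higher with TSA in the first and second pairs and lower in the third. Without the third pair the log2 fold changes were 0.35 for Smad6 (adjusted p = 0.0265, limma) and 0.16 for Smad7 (adjusted p = 0.181). Mean levels in rat differed from mouse in their order, with Tgfb3 at 53.1 and Tgfbr2 at 50.6 FPKM having the highest DMSO means. From Tgfb3 down through Tgfbr2 and Tgfb2 to Tgfb1, neighbouring genes in that order overlapped, and Tgfb3 was highest in no single DMSO library. The species were not tested against each other.

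**Figure D5:**
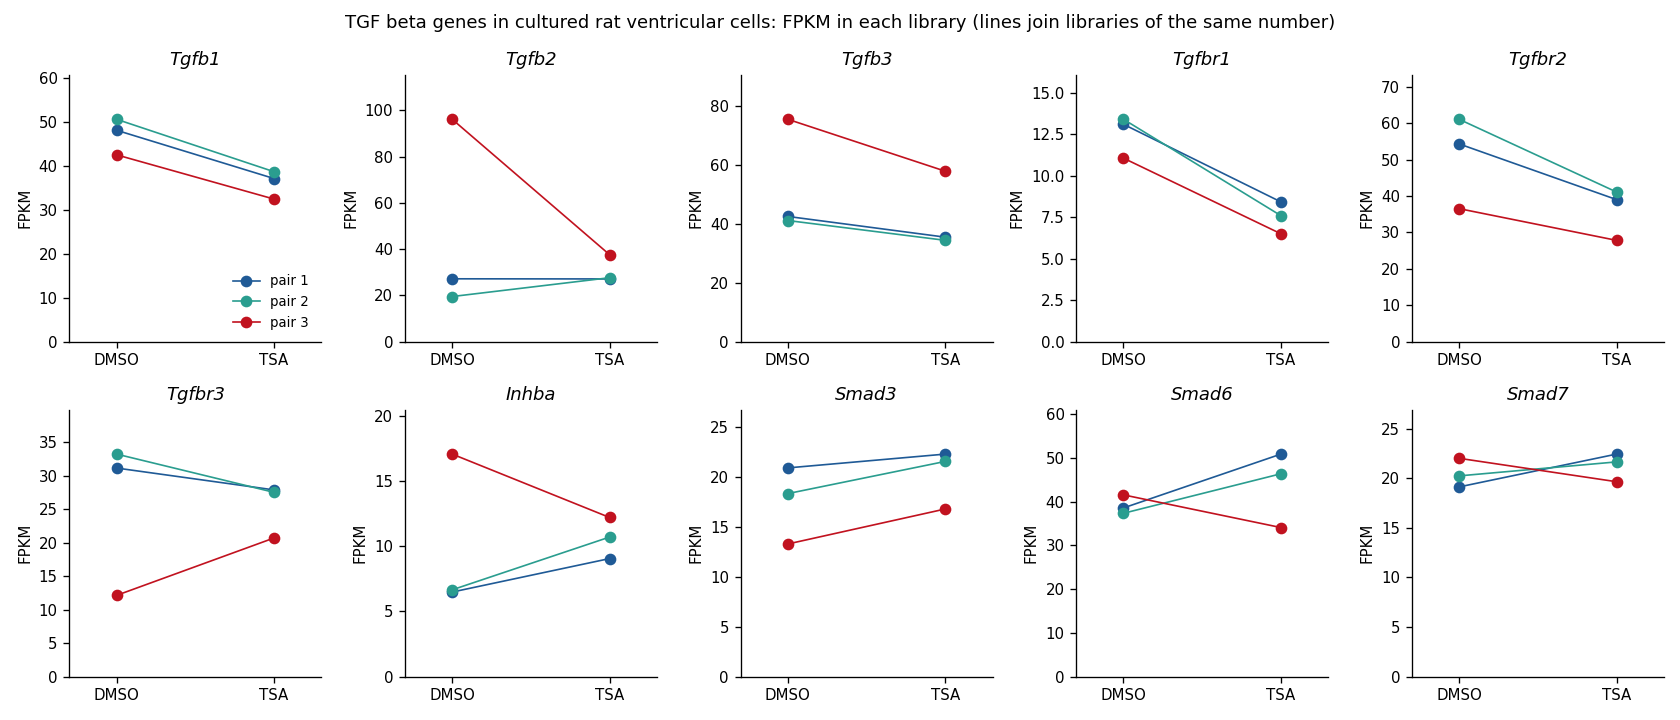
FPKM (vertical axis, from 0) of the 10 genes in 3 DMSO and 3 TSA libraries of rat cells, with lines joining libraries of the same replicate number. The lines of Tgfb1 and Tgfbr1 all slope down without overlap between the groups, and the third pair lies apart from the other two for Tgfb2, Tgfbr3 and Inhba.

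Of the other pathway lists in rat, 2 of 10 ligands were called higher with TSA. Gdf10 rose from 0.373 ± 0.176 FPKM (n = 3) to 4.51 ± 1.93 (log2 fold change 1.94, SE 0.30, adjusted p = 0.0221), and Gdf11, a ligand close to myostatin, from 5.54 ± 0.268 to 12.2 ± 0.592 FPKM (1.01, adjusted p = 0.00889). Hamp, the hepcidin gene and a target of BMP, at 29.2 ± 12.0 and 5.62 ± 1.01 FPKM, fell by 2.12 on the log2 scale and was the only one of 9 BMP targets called. None of 9 receptors, 5 SMADs, 11 latency genes, 14 inhibitors or 21 targets of TGF beta was called, and their medians were -0.12, -0.13, -0.22, -0.07 and -0.33.

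Few cell type markers were called between the rat groups. None of 13 cardiomyocyte and 11 fibroblast genes was called, with summed FPKM of 15357 to 26167 and 6976 to 7563 with DMSO and 13800 to 37279 and 4052 to 6582 with TSA. The summed fibroblast markers were thus lower in every TSA library, as Tgfb1 and Tgfbr1 were, while the median log2 fold change of that list was -0.12. Col1a1, a large part of the sum, stood at 3220 ± 490.4 FPKM with DMSO and 2432 ± 508.1 with TSA. Dcn went the other way, at 151.4 ± 53.6 and 176.9 ± 30.1 FPKM. Tnnt2 stood at 2464 ± 182.5 FPKM with DMSO and 2705 ± 246.4 with TSA, and no marker found in the files was at 0 in a rat group. The endothelial, smooth muscle, macrophage and epicardial lists had 1 gene each called higher with TSA, and none of 3 erythroid genes tested was called. Their part in the values of the 10 genes was not tested.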

How the data were processed

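Mouse RNA-seq (8 libraries), mouse ATAC-seq (8 libraries) and rat RNA-seq (6 libraries) were used, of 28 samples in all, and 6 HiChIP libraries were not analysed here. Per the submitters' processing notes and the file headers, the authors aligned RNA-seq reads with HISAT2 (2.1.0) and deposited transcript files from StringTie, against mm10 with GENCODE or Rnor_6.0 with Ensembl annotation. These files hold FPKM, TPM and coverage by the authors for each transcript. The deposited ATAC-seq peak lists, 1 per library without pooling, were called by the authors with MACS2 after alignment with Bowtie2, trimming by cutadapt and removal of duplicates with Picard. They give a score, a fold enrichment (a ratio to background) and −log10 p and q values by the authors for each peak.

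Transcript FPKM was summed per gene, and a gene was kept where 2 mouse or 3 rat libraries reached an FPKM of 1. Values of log2(FPKM + 1) were fitted with limma (3.58.1, R 4.3.3) over the 8 mouse or the 6 rat libraries, with a trended moderated two-sided test and Benjamini-Hochberg adjustment over all tested genes. A call required an absolute log2 fold change beyond 1 together with an adjusted p below 0.05. Reads were estimated from coverage, and their totals stand for depth. A promoter peak overlapped the 2.5 kb on either side of an annotated start. Promoter sequences came from RefSeq (GRCm38.p6). The fit was tested on simulated data. The p-values were not adjusted over the 10 genes alone.

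Every gene of the set was described in every comparison. From the pathway lists, up to 2 called genes per direction with the largest change and no overlap between groups were named for P7 and for TSA, the marker genes were fixed by name, and the 2 genes of most similar pattern were given per member. Members and lists were chosen with earlier results of these data known. Alternatives were a pseudocount of 0.1, no filter, TPM, size factors, limma-voom, a replicate block, fits on fewer libraries and other peak rules. Same-numbered rat libraries deviated together from their group means (r of 0.224, 0.194 and 0.346), so the replicate numbers were taken to pair the rat libraries. Libraries of unlike number gave r of -0.27 to 0.167, with 0.167 for DMSO replicate 2 and TSA replicate 1. These values set replicate 3 apart but barely separate replicates 1 and 2. No label states the pairs, and all statements on pairs rest on this choice.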

Additional observations from a re-analysis of the deposited data

How the results depend on the processing

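Tgfb3 and Smad6 were called at P1, P3 and P7 under every alternative run, and over all repeats for single genes 741 kept direction and side of the threshold, 18 gained a call, 10 lost one and 21 reversed direction. At P1 the count of called genes was 4 with TPM (2 in the report). At P3 and P7 (4 each in the report) it was 6 and 6 with TPM, 5 and 6 with limma-voom, and 3 and 3 without the expression filter. Size factors gave 3 and 4, and a pseudocount of 0.1 gave 4 and 5. Leaving out single libraries gave 2 to 3 at P1, 2 to 5 at P3, 2 to 6 at P7 and 0 to 1 for P7 against P1. The lowest counts at P3 came without E18.5 replicate 2 (2) and without P3 replicate 2 (2), and at P7 without E18.5 replicate 2 (2). A lone library left in a group was assumed to vary like the others. Keeping the peaks above the median score of each list gave a promoter peak in both libraries for 3 genes at E18.5 and 3 at P1, against 32.9% and 28.2% of all tested genes. Equal list length gave 4 at P3 (37.3% of all tested genes). Either P1 library alone gave 6 to 8 genes (43.0 to 69.2%) and either E18.5 library 8 to 10 (62.4 to 67.1%). The cause was not tested.

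With replicate number as a block, the counts stayed at 4 for P3 and 4 for P7, no TSA call was made, and no call on the 10 genes changed. In mouse the libraries share only a number (r of same-numbered deviations -0.096 to 0.171). In rat, where the pairing was accepted, the block moved the calls over all genes from 290 to 339.

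Reversed values belonged to genes that were not called, and leaving out single libraries gave these ranges for them. Smad7 ran from -0.69 to 0.13 for P3 against E18.5. For P3 against P1, Inhba ran from -0.08 to 0.84, Smad3 from -0.14 to 0.065 (0.02 without P3 replicate 2) and Smad6 from -0.64 to 0.35. For P7 against P1, Inhba ran from -0.18 to 0.75 and Smad7 from -0.079 to 0.14. For P7 against P3, Tgfbr2 ran from -0.19 to 0.24, Tgfbr3 from -0.12 to 0.26, Inhba from -0.29 to 0.088 and Smad6 from -0.88 to 0.10. With TSA, Tgfb2 ran from -0.73 to 0.39, Tgfbr3 from -0.34 to 0.35 and Inhba from -0.022 to 0.61. DMSO replicate 3 gave the value of 0.39 for Tgfb2, -0.34 for Tgfbr3 and 0.61 for Inhba. Leaving out the pair numbered 3, an alternative chosen after seeing the data, turned Tgfb2 to 0.24 and Tgfbr3 to -0.21, and Smad7 was -0.017 with TPM. With 2 libraries per mouse group, differences under the fold threshold were not resolved firmly.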
